A study of Mus musculus with 16 samples.

Results

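Chemokines and inflammatory cytokines are described here through 10 secreted factor genes out of 20284 gene symbols on the array: the CC chemokine genes Ccl17, Ccl22, Ccl6, Ccl9, Ccl3, Ccl4 and Ccl2, and the cytokine genes Il6, Il1b and Tnf. Members were taken by name, and each had 1 probe. Ccl17 and Il6 were chosen by their measured levels, which with IRF8 and C/EBPalpha together exceeded the sum of the effects of each factor alone, and so their values in the transduced cells are given as a description without a test. Of the 10 genes, 8 were well above background on both arrays of at least 1 group in 32Dcl.3 cells, and 4 of these also in the sorted progenitors. Ccl22 and Ccl2 were well above background on none of the 16 arrays.

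Gene expression had been measured on 16 single-colour arrays, 2 from independent experiments for each of 8 groups. Monocyte-dendritic cell progenitors (MDPs) and common monocyte progenitors (cMoPs) had been sorted from the bone marrow of wild-type (WT) mice and of mice lacking Irf8 (Irf8KO), with no age or strain in the labels used here. Cells of the 32Dcl.3 line, a mouse myeloid progenitor line grown in WEHI3B conditioned medium, had received a pair of MSCV retroviral vectors, one marked with hCD8t and one with puro, and were collected 3 days later. All 4 groups of these cells carried both vectors. Both were empty in the control group, the puro vector carried C/EBPalpha in the C/EBPalpha group, the hCD8t vector carried IRF8 in the IRF8 group, and both inserts were present in the both-factor group. Retroviral overexpression in 1 cell line limits these groups as a model, and it is not known from the labels how many animals were pooled for a sorted sample.

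Chemokines are small secreted proteins that attract leukocytes through G protein-coupled receptors. Ccl17 and Ccl22 share the receptor Ccr4, Ccl3 and Ccl4 attract monocytes and other leukocytes, Ccl6 and Ccl9 act through Ccr1, and Ccl2 acts through Ccr2, which monocytes use to leave the bone marrow. Il6, Il1b and Tnf encode the classic inflammatory cytokines of activated macrophages, and the Il1b product is made as a precursor that caspase-1 can cut. IRF8 is a transcription factor needed for monocyte and dendritic cell development, and C/EBPalpha is the main factor of the granulocyte line and of early myeloid progenitors.

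The sequence before the start site is shown for 5 members whose levels differed most between the transduced groups or that neighbour such a gene on the chromosome. The 250 bases before each start are from RefSeq on build GRCm38.p6, 5′ to 3′ on the strand of the gene, and 8 of the 10 members were listed there. In all 6 motif patterns were searched on both strands, and capitals mark the matches. They were GAAA, any 2 bases, GAAA (the interferon-stimulated response element), GGAA, any 2 bases, GAAA (an ETS-IRF composite element), TTGC, any 2 bases, AA (C/EBP), GGGA, any 4 bases, CC (NF-kB), TGANTCA (AP-1) and TATAAA (the TATA box).
Il6: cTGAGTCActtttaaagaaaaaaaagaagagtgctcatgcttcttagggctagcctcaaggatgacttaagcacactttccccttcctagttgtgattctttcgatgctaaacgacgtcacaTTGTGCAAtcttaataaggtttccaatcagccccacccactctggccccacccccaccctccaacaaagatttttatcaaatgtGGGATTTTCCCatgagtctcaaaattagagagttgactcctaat
Ccl17: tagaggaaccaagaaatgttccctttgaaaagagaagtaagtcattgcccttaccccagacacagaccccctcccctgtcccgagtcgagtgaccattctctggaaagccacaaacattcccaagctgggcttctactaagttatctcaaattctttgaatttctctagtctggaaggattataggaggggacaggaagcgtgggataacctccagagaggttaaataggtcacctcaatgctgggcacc
Ccl22: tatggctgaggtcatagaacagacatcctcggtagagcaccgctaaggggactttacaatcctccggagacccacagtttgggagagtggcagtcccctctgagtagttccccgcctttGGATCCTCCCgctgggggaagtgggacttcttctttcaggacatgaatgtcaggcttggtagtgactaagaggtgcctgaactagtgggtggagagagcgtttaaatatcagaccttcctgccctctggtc
Ccl6: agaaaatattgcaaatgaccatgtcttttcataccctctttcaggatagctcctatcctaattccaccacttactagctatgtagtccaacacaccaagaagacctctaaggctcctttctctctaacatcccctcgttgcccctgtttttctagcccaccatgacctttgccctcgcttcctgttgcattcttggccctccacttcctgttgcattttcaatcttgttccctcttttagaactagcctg
Il1b: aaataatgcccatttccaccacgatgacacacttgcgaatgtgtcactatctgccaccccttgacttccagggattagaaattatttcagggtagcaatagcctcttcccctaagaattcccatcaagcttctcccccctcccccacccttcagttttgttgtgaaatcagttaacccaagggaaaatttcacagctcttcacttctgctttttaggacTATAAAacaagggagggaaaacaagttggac
These windows lie at chr5:30012864-30013113 (plus strand) for Il6, chr8:94810203-94810452 (plus) for Ccl17, chr8:94745434-94745683 (plus) for Ccl22, chr11:83593088-83593337 (minus) for Ccl6 and chr2:129371140-129371389 (minus) for Il1b.

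Counting from the start site, the Il6 window held a C/EBP match at -128 to -121, an NF-kB match at -44 to -35 that overlapped another on the opposite strand at -43 to -34, and an AP-1 match at -249 to -243. The Ccl22 window held an NF-kB match at -131 to -122, and the Il1b window a TATA box at -31 to -26. None of the 6 patterns occurred in the windows of Ccl17, Ccl6 or Ccl3. Of the members not printed, Tnf had a TATA box at -29 to -24, and Ccl9 had an AP-1 match at -53 to -47 and 3 TATA box matches, of which the pair nearest the start site overlapped. Among 32851 RefSeq windows of this length, 9.56% held the C/EBP pattern, 17.6% the NF-kB pattern, 6.75% the AP-1 pattern, 12.4% the TATA box, 2.98% the interferon-stimulated pattern and 2.3% the ETS-IRF pattern. A match is a run of letters and not a measured binding site, and binding was not measured here.

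Levels are given as the processed signal of the scanner software, an intensity after background subtraction, and as scaled log2 values, which are log2 of that signal minus log2 of the 75th percentile of the array. Scaled values of different genes come from different probes and are not compared with each other. That percentile ranged from 67.8 to 81.0 in MDPs, from 456 to 568 in cMoPs and from 147 to 460 in 32Dcl.3 cells, where it was lowest with both factors. No spot was saturated. MDPs, cMoPs and 32Dcl.3 cells each lay on a slide of their own, so every comparison of 2 groups was made within a slide, and stage and slide cannot be told apart. Position on the slide followed the groups too: MDP genotype and IRF8 followed the column, and cMoP genotype and C/EBPalpha the row. Xist was well above background on the MDP arrays only, and Ddx3y and Eif2s3y on the cMoP arrays only, in both genotypes. By these sex-linked genes the sex of the mice followed stage as well, so that sex, stage and slide cannot be told apart. The Irf8 probe stayed well above background in Irf8KO cells (log2 change -0.55 in MDPs and -1.48 in cMoPs), and neither the Irf8 nor the Cebpa probe was well above background on any 32Dcl.3 array. These probes therefore did not check the labels of the transduced cells. Among the defining markers, all 5 progenitor genes listed were detected in the sorted cells, and Kit was not well above background in any 32Dcl.3 group. In bulk RNA, more cells expressing a gene and more RNA per cell cannot be told apart.

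**Figure D1:**
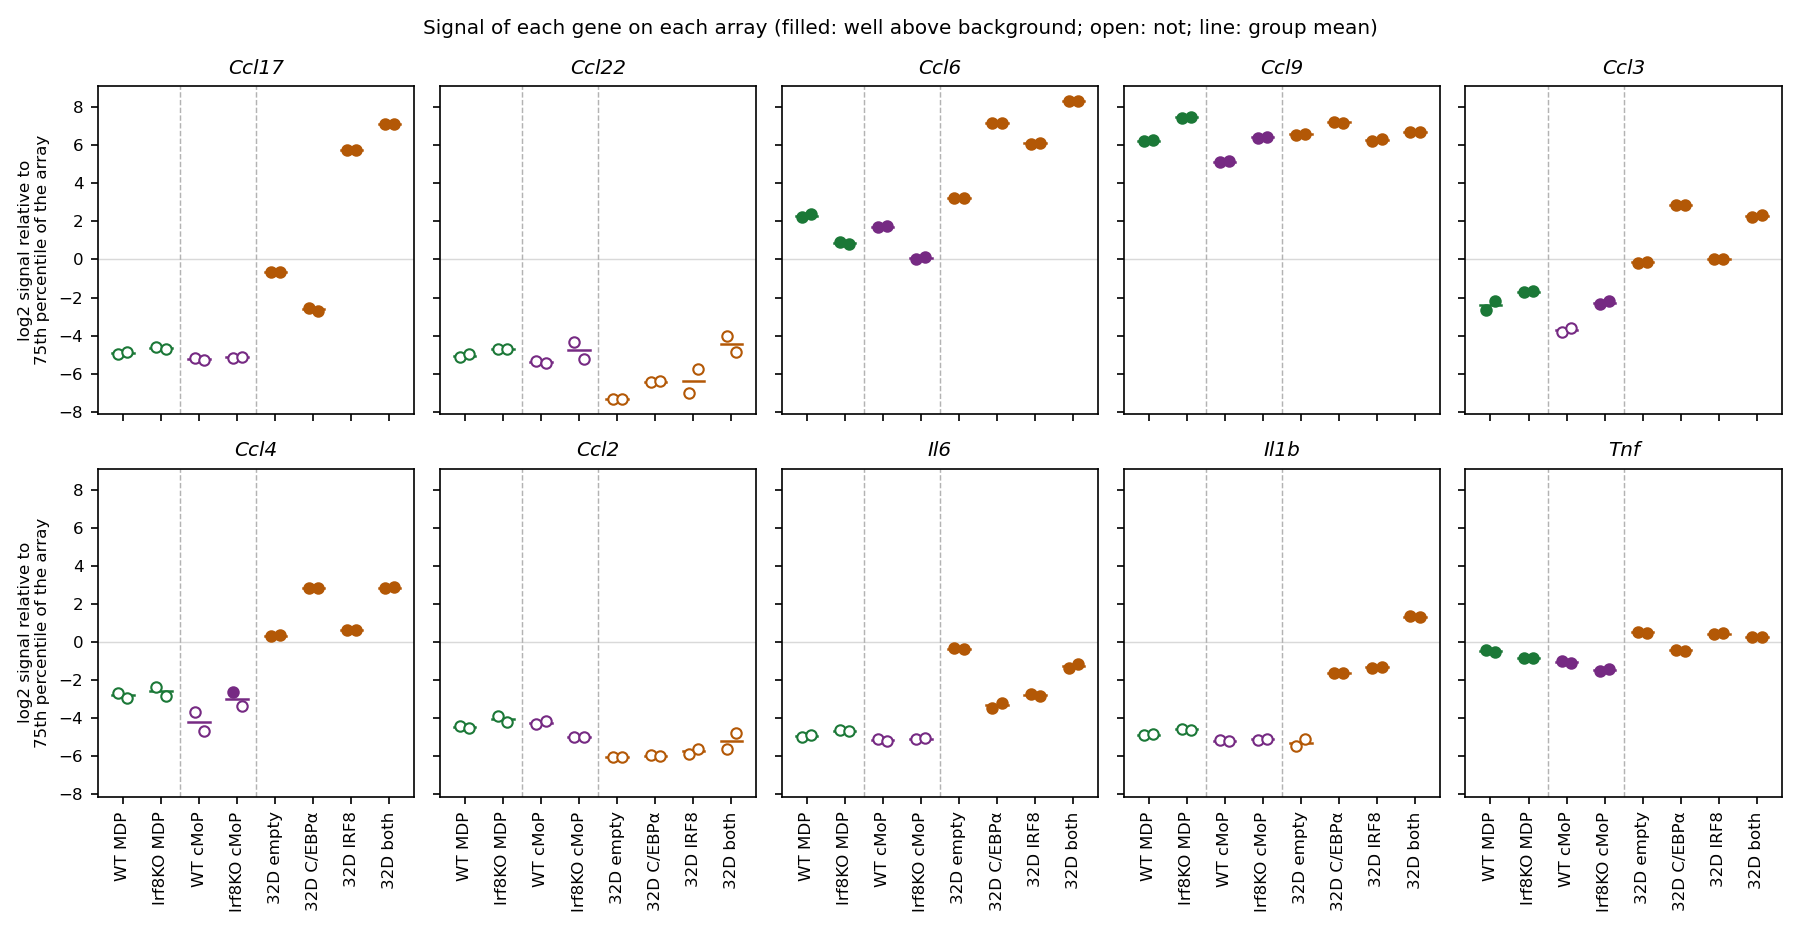
Scaled log2 signal (vertical axis, relative to the 75th percentile of each array) of the 10 genes on the 16 arrays, with 2 points per group (horizontal axis) and a line at the group mean. Filled points are well above background and open points are not. Ccl17 with IRF8 or both factors stands far above every other group, while Ccl22 and Ccl2 have open points throughout.

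The first comparison asked which of these genes depended on Irf8 in the progenitors. Ccl6 fell and Ccl9 rose in Irf8KO cells, at both stages and by more than the spread between arrays. Ccl3 was higher and Tnf lower in Irf8KO cells, with larger errors. Ccl17, Ccl22, Ccl2, Il6 and Il1b were at background on every progenitor array, and Ccl4 was above it on only 1 of 8, array 1 of the Irf8KO cMoPs.

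Ccl6, a chemokine of myeloid cells, had processed signals of 360.9 and 417.6 on the WT MDP arrays and 132.7 and 121.0 on the Irf8KO MDP arrays. The genotypes did not overlap, and the log2 change was -1.42 ± 0.071 (SE), a 2.68-fold lower level (limma, adjusted p = 9.69e-08). In cMoPs the signals were 1869 and 1804 in WT and 459.9 and 496.3 in Irf8KO cells. This was a log2 change of -1.66 ± 0.071, or 3.16-fold lower (adjusted p = 1.62e-08), again with no overlap.

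Ccl9, its neighbour on chromosome 11, changed in the opposite direction. The MDP signals were 5743 and 6174 in WT and 12138 and 12110 in Irf8KO cells, a log2 change of 1.22 ± 0.036 or 2.33-fold (adjusted p = 1.86e-09). The cMoP signals were 19512 and 19367 in WT and 38553 and 39244 in Irf8KO cells, a log2 change of 1.28 ± 0.036 or 2.43-fold (adjusted p = 7.03e-10). Both Irf8KO arrays lay above both WT arrays at each stage.

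Ccl3, a ligand of Ccr1, was dim in MDPs, with signals of 12.3 and 17.8 in WT and 21.3 and 21.5 in Irf8KO cells. The change of 0.73 ± 0.24 passed the threshold (adjusted p = 0.0288), but not when WT MDP array 1 was left out (log2 change 0.50), nor without Irf8KO array 1 or 2 (0.76 and 0.70). It was also lost with array median scaling (0.63), quantile normalization (0.55) or normexp background correction (0.20), and with no filter on dim probes. In cMoPs Ccl3 was not well above background in WT cells (41.1 and 45.6) and was in Irf8KO cells (90.7 and 100.5), at least 1.88-fold higher (measured log2 change 1.42 ± 0.24, adjusted p = 0.00058). The bound sets the Irf8KO mean against the higher of the WT signal and the faintest signal well above background on each WT array.

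Tnf had MDP signals of 56.3 and 55.3 in WT and 38.6 and 37.2 in Irf8KO cells, and cMoP signals of 286.2 and 252.5 in WT and 157.1 and 172.7 in Irf8KO cells. The groups did not overlap at either stage. After scaling, the log2 change was -0.36 ± 0.13 in MDPs (adjusted p = 0.0328) and -0.43 ± 0.13 in cMoPs (adjusted p = 0.0151). The MDP call was lost with normexp background correction (-0.14), with no filter on dim probes, with the MDP slide fitted alone, without WT MDP array 1 (-0.31) or either Irf8KO MDP array (-0.37 and -0.36), or when 1 of the WT cMoP arrays, which share the estimate of the spread, was left out. The cMoP call was lost without WT array 1 (-0.37) or Irf8KO array 1 (-0.35).

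In MDPs all 4 tested members were called, 2 up and 2 down, where 51.4% of all 11964 genes tested were called, 22.8% up and 28.6% down. In cMoPs all 4 were called as well, 2 up and 2 down, against 54.1% of all genes, 22.9% up and 31.1% down. With a background of this size, the counts alone say little about these genes. The median absolute log2 change of the 4 members was 0.97 in MDPs and 1.35 in cMoPs, and that of all genes tested 0.22 and 0.23. The difference between the knockout effects at the 2 stages was called for 0 of the 4 members by limma (24.9% of all genes). Its values were -0.24 ± 0.10 for Ccl6 (95% interval -0.46 to -0.018, adjusted p = 0.108), 0.061 ± 0.051 for Ccl9 (adjusted p = 0.417), 0.69 ± 0.34 for Ccl3 (adjusted p = 0.170) and -0.061 ± 0.18 for Tnf (adjusted p = 0.837). The Ccl3 difference passed with normexp background correction (0.46), and the Ccl6 difference when arrays were scaled to their median (-0.46) or quantile normalized (-0.49). That of Tnf passed with the deposited series values (-1.10).

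**Figure D2:**
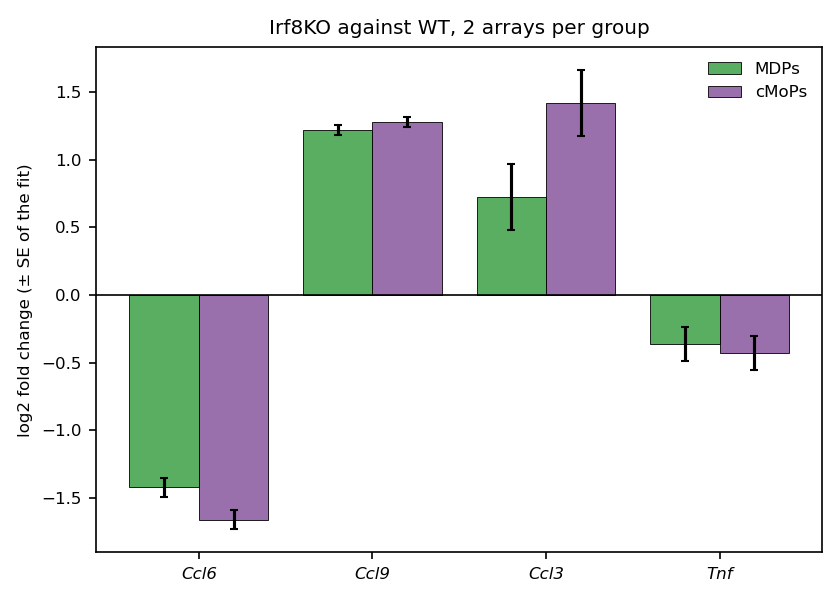
Log2 fold change of Irf8KO against WT (vertical axis) for the 4 genes tested in progenitors (horizontal axis), in MDPs and in cMoPs, with bars for the SE of the limma fit. Ccl6 and Tnf lie below 0 and Ccl9 and Ccl3 above 0 at both stages.

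Markers of other cells moved with genotype. Of the basophil, mast cell and eosinophil markers, 8 of 9 tested fell in Irf8KO MDPs, and the summed scaled signal of the 12 with a probe was 59.6 to 61.7 in WT and 40.1 to 40.2 in Irf8KO MDPs. Of the neutrophil markers, 7 of 8 tested rose in Irf8KO cMoPs, with sums of 261 to 266 in WT and 781 to 796 in Irf8KO cells. Cpa3, Fcer1a and Prg2 were not well above background on any Irf8KO MDP array, and Retnlg was the only neutrophil marker of the 9 at background in the cMoPs. In Irf8KO MDPs 3 of 4 T and NK cell markers tested rose (sums of 155 to 157 in WT and 197 to 203 in Irf8KO), as did 2 of 2 B cell markers (36.4 to 37.2 and 50.4 to 51.3), and 2 of 2 erythroid markers fell (3.91 to 4.27 and 0.443 to 0.561). Cd3g and Cd3d were at background in MDPs of both genotypes. In Irf8KO MDPs 2 of 8 neutrophil markers tested rose and 3 fell. In Irf8KO cMoPs 3 of 9 basophil, mast cell and eosinophil markers tested rose and 4 fell. Of 8 monocyte markers tested 3 rose and 3 fell in MDPs, and 2 rose and 3 fell in cMoPs. Of 8 dendritic cell markers tested 3 rose and 2 fell at each stage. Of all genes 51.4% were called in MDPs and 54.1% in cMoPs. The part of these markers in the changes of Ccl6, Ccl9, Ccl3 and Tnf was not tested.

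In 32Dcl.3 cells the question was what C/EBPalpha, IRF8 and their combination did to the same genes. Ccl17 was 84.3-fold higher with IRF8 alone and lower with C/EBPalpha alone, and Il6 was lower with either factor. Among the 6 members open to testing, C/EBPalpha raised Ccl6, Ccl3, Ccl4 and Il1b strongly, IRF8 raised Ccl6 and Il1b, and Il1b was highest with both factors together. Tnf was lowest with C/EBPalpha.

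Ccl17, the ligand that draws Ccr4-bearing T cells and a product of dendritic cells, had signals of 288.8 and 278.1 with empty vectors, 37.3 and 33.3 with C/EBPalpha, 19386 and 19432 with IRF8 and 21131 and 20311 with both factors. The groups formed 3 levels in these signals: low with C/EBPalpha, intermediate with empty vectors, and high wherever IRF8 was present. On the scaled log2 scale the means were -2.62 ± 0.099 (SD, n = 2), -0.68 ± 0.0048, 5.72 ± 0.0020 and 7.10 ± 0.0037, in the same order. The log2 change against empty vectors was 6.40 with IRF8, exceeded by 7 of 13339 genes, and 7.78 with both factors, exceeded by 13. Both factors exceeded C/EBPalpha alone by 9.72, a difference exceeded by 2 genes.

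The step from IRF8 to both factors depended on the scaling. It was 1.38 in scaled log2 values, 0.69 when arrays were scaled to their median, and 0.094 with no scaling between arrays, since the unscaled signals with IRF8 and with both factors were nearly equal. The fall with C/EBPalpha against empty vectors was -1.94 scaled and -3.01 unscaled. The Ccl17 signal was therefore lower with C/EBPalpha alone in scaled and unscaled values, whereas with both factors it was clearly above IRF8 alone only relative to the other genes on the array.

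Ccl22, the other ligand of Ccr4 and 2 genes from Ccl17 on chromosome 8, had signals of 2.49 to 9.56 in 32Dcl.3 cells and was below the detection limit throughout. Cx3cl1, which encodes fractalkine and lies between them, was measured in all 4 groups. It changed by -2.03 ± 0.043 with C/EBPalpha (adjusted p = 1.06e-12), by 0.34 ± 0.043 with IRF8 (adjusted p = 3.88e-05) and by 0.47 ± 0.043 with both factors (adjusted p = 4.66e-07). Its level with both factors lay 2.15 ± 0.060 above the sum of the single effects (adjusted p = 1.83e-10). Its change with both factors was smaller than the shift of all genes under array median scaling (median from -0.096 to -0.75), so that its direction depends on the scaling.

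Ccl6 had signals of 4227 and 4113 with empty vectors, 30695 and 30419 with C/EBPalpha, 24523 and 25903 with IRF8 and 49232 and 46542 with both factors. All 4 groups were separate. The log2 change against empty vectors was 3.94 ± 0.030 with C/EBPalpha (15.3-fold, adjusted p = 1.80e-16), 2.90 ± 0.030 with IRF8 (7.44-fold, adjusted p = 9.89e-15) and 5.11 ± 0.030 with both (34.5-fold, adjusted p = 2.17e-17). Either factor raised Ccl6 and both together raised it further, in scaled and in unscaled signals.

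Ccl9 was bright in every group, with signals of 42947 and 43125 with empty vectors, 32513 and 31166 with C/EBPalpha, 27209 and 29295 with IRF8 and 15940 and 15181 with both factors. Its scaled changes were small: 0.63 ± 0.036 with C/EBPalpha (adjusted p = 6.37e-09), -0.31 ± 0.036 with IRF8 (adjusted p = 2.16e-05) and 0.12 ± 0.036 with both (adjusted p = 0.00786). Only the fall with IRF8 had the same sign in the unscaled signals, where C/EBPalpha gave -0.44. The change with both factors was -0.54 with scaling to the array median and lost its call without empty vector array 1 (0.093).

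Ccl6 and Ccl9 had opposite signs in loss and gain of the factor. Ccl6 fell in both Irf8KO progenitors and rose with IRF8 in 32Dcl.3 cells, and Ccl9 rose in both knockouts and fell with IRF8. The systems lay on different slides, and the difference between them was not tested.

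Ccl3 had signals of 409.7 and 407.9 with empty vectors, 1586 and 1563 with C/EBPalpha, 374.8 and 374.6 with IRF8 and 732.6 and 738.8 with both factors. The scaled log2 change was 3.01 ± 0.045 with C/EBPalpha (8.06-fold, adjusted p = 7.30e-14), 0.17 ± 0.045 with IRF8 (adjusted p = 0.00743) and 2.44 ± 0.045 with both (5.41-fold, adjusted p = 1.34e-13). The unscaled signal with IRF8 was slightly below that of empty vectors, so that small rise rests on the scaling. Adding IRF8 to C/EBPalpha gave a lower Ccl3 level, by -0.57 ± 0.045 (adjusted p = 2.30e-07).

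Ccl4, which lies next to Ccl3 on chromosome 11, had signals of 563.1 and 572.7 with empty vectors, 1543 and 1512 with C/EBPalpha, 568.1 on both IRF8 arrays, and 1089 and 1072 with both factors. The changes were 2.49 ± 0.042 with C/EBPalpha (5.63-fold, adjusted p = 1.72e-13), 0.30 ± 0.042 with IRF8 (adjusted p = 0.000102) and 2.52 ± 0.042 with both (5.72-fold, adjusted p = 5.50e-14). In scaled values C/EBPalpha and both factors did not differ beyond the spread (0.024 ± 0.042, 95% interval -0.068 to 0.12, adjusted p = 0.622). This depended on the scaling, since the unscaled signals were lower with both factors than with C/EBPalpha alone. Over the alternatives run the difference was -0.32 to 0.13, where 3 gained a call and 1 changed sign. The unscaled signals with IRF8 lay within those of empty vectors. In Ccl4 as in Ccl3 the large rises were in the groups with C/EBPalpha.

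Ccl2 had signals of 3.11 to 7.62 in 32Dcl.3 cells and gave no measurable level, although its probe was spotted 10 times.

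Il6 had signals of 363.1 and 343.7 with empty vectors, 19.9 and 23.4 with C/EBPalpha, 55.4 and 52.3 with IRF8 and 58.9 and 66.1 with both factors. Il6 was highest with empty vectors, and each transduced factor went with a much lower signal. The scaled log2 means were -0.36 ± 0.023 (SD, n = 2), -3.32 ± 0.18, -2.77 ± 0.063 and -1.27 ± 0.16, in that order. Against empty vectors the log2 change was -2.97 with C/EBPalpha (7.82-fold lower), -2.42 with IRF8 (5.33-fold lower) and -0.91 with both factors (1.88-fold lower). Il6 was 2.83-fold higher with both factors than with IRF8 alone in scaled values, but the log2 difference was 0.21 unscaled.

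Il1b was not well above background with empty vectors (10.4 and 12.8). It passed the filter only through the groups with a factor. The direction of its changes against empty vectors was therefore set by the filter, and their p-values are no support for it. The signals were 69.6 and 69.0 with C/EBPalpha, 142.6 and 149.9 with IRF8 and 394.2 and 365.5 with both factors, so no groups overlapped. Against empty vectors Il1b was at least 11.1-fold higher with C/EBPalpha (measured log2 change 3.65 ± 0.13, adjusted p = 6.35e-11), at least 13.8-fold with IRF8 (3.96, adjusted p = 1.88e-10) and at least 87.8-fold with both factors (6.63, adjusted p = 1.53e-13). Both factors exceeded C/EBPalpha alone by 2.98 and IRF8 alone by 2.67 (7.87-fold and 6.34-fold).

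Tnf had signals of 669.2 and 613.0 with empty vectors, 162.7 and 155.5 with C/EBPalpha, 491.4 and 509.1 with IRF8 and 186.0 and 174.7 with both factors. The scaled change was -0.95 ± 0.059 with C/EBPalpha (1.93-fold lower, adjusted p = 1.54e-08), -0.057 ± 0.059 with IRF8 (95% interval -0.19 to 0.072, adjusted p = 0.467) and -0.24 ± 0.059 with both (adjusted p = 0.00224). The groups with C/EBPalpha were the low ones in unscaled signal. The change with both factors was 0.046 when the percentile was taken over detected probes, and so its direction depended on the scaling.

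**Figure D3:**
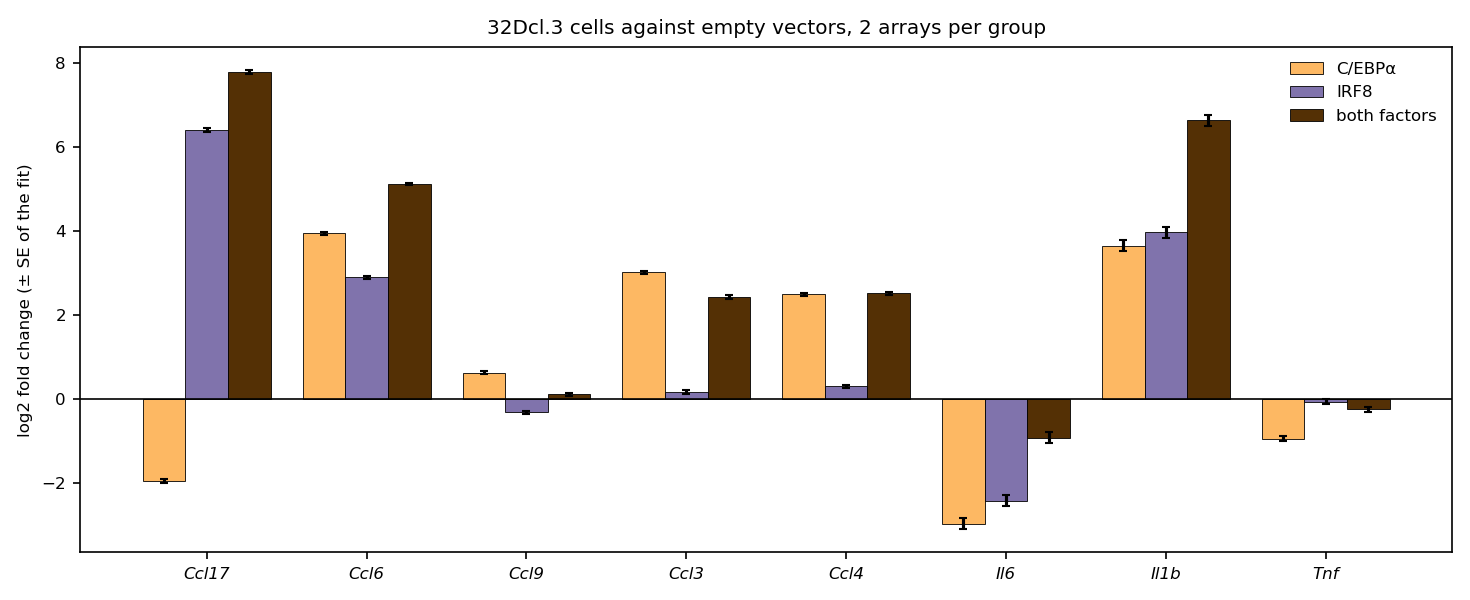
Log2 fold change against empty vectors (vertical axis) for the 8 genes measured in 32Dcl.3 cells (horizontal axis), with C/EBPalpha, with IRF8 and with both factors, and bars for the SE of the limma fit. Ccl17 rises only in the groups with IRF8, Ccl3 and Ccl4 mainly in those with C/EBPalpha, and Ccl6 and Il1b in all 3.

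Of the 6 tested members, 6 were called with C/EBPalpha, 5 up and 1 down, where 78.8% of all genes were called (31.6% up and 47.2% down). With IRF8 5 were called, 4 up and 1 down, against 48.1% of all genes (22.7% up and 25.4% down). With both factors 6 were called, 5 up and 1 down, against 84.8% (38% up and 46.8% down). Both factors against C/EBPalpha gave 3 up and 2 down, against 72.4% of all genes (34.4% up and 37.9% down), and against IRF8 5 up and 1 down, against 82.2% (36.1% up and 46.1% down). With such backgrounds the counts say little. The rises against empty vectors include Il1b, kept by the filter only through the groups with a factor. The members were chosen with earlier results of these data known, so their sizes are a description. The median log2 change of the 6 was 2.75 with C/EBPalpha, 0.24 with IRF8 and 2.48 with both factors, and that of all genes tested -0.14, -0.031 and -0.096. Scaling to the array median moved the median of all genes to -0.45 with C/EBPalpha, 0.0093 with IRF8, -0.75 with both factors, -0.35 for both against C/EBPalpha and -0.78 for both against IRF8. The percentile over detected probes moved it to 0.065 with C/EBPalpha, 0.19 with both and 0.21 for both against IRF8. The changes of Ccl9 (0.12) and Tnf (-0.24) with both factors were smaller than the shift of that comparison.

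Neutrophil markers rose in all 9 cases with C/EBPalpha and with both factors, and their summed scaled signal was 242 to 246 with empty vectors, 3122 to 3171 with C/EBPalpha, 216 to 219 with IRF8 and 2053 to 2061 with both. Dendritic cell markers rose in 8 of 8 tested with both factors, with sums of 226 to 242 in empty vector cells and 993 to 1020 with both, while Xcr1, Clec9a and Cd209a were not detected in any 32Dcl.3 group. The dendritic sums were 344 to 351 with C/EBPalpha, where Ccl17 was lowest, and 385 to 403 with IRF8. The sums of the progenitor markers were 170 to 175 with empty vectors, 1184 to 1199 with C/EBPalpha, 137 to 138 with IRF8 and 639 to 669 with both, and those of the monocyte markers 65.3 to 66.3, 189 to 190, 165 to 167 and 283 to 286. A sum can be carried by a few bright genes, and not all listed markers rose. With C/EBPalpha 2 of 4 progenitor markers tested rose and 1 fell, and 5 of 8 monocyte markers rose and 2 fell. Of 8 dendritic cell markers 4 rose and 2 fell, where 31.6% of all genes rose and 47.2% fell. With both factors 3 progenitor markers rose and 1 fell, and 5 monocyte markers rose and 2 fell (38% and 46.8% of all genes). The part of these marker changes in the values of the 8 genes was not tested.

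The comparison of both factors with the single ones asked whether their effects added up. On the log2 scale the departure is the change with both factors minus the sum of the changes with each alone. Ccl17 and Il6 were chosen for a departure above 0, and that of Ccl17 was 3.32 ± 0.063 (SE). Its scaled signal with both factors was 138 times the 75th percentile where the sum of log2 effects gave 13.8. The departure of Il6 was 4.47 ± 0.19, with a scaled signal of 0.416 where the sum gave 0.0188. That sum lies below the faintest signal well above background on the arrays with both factors (scaled log2 -3.99 and -3.70). An additive Il6 level could not have been told from background there. For Il6 the excess is therefore a smaller fall than the sum predicted, since its level with both factors stayed below the 0.781 of empty vector cells. With normexp background correction the departures were 2.03 and 2.49, the lowest over the alternatives run.

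The 6 members not picked for this pattern were tested, and all 6 departed from the sum (55.7% of all genes were called). Il1b was at background with empty vectors and passed the filter only through the groups with a factor. Its departure is therefore a description, and its p-value is no support. Ccl6, Ccl9, Ccl3, Ccl4 and Il1b fell below the sum, by -1.72 ± 0.042 (adjusted p = 8.58e-11), -0.20 ± 0.050 (adjusted p = 0.00513), -0.75 ± 0.064 (adjusted p = 1.23e-06), -0.28 ± 0.059 (adjusted p = 0.00193) and -0.99 ± 0.18 (adjusted p = 0.000548). Tnf lay above it by 0.76 ± 0.083 (adjusted p = 9.82e-06). Of all genes tested, 31.9% were called below the sum and 23.8% above. Without scaling the 6 departures kept their signs, from -1.95 for Ccl6 to 0.54 for Tnf. With normexp background correction, however, the Il1b departure turned to 0.41, and with the percentile over detected probes Ccl9 lost its call (-0.11, limma adjusted p = 0.0599).

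Whether a gene exceeded the sum also depended on the scale on which effects were added. For Ccl6 the scaled signal with both factors was 318, below the 1051 of added log2 effects but above the 201 of added linear effects. Il1b likewise had 2.52 against 4.96 and 0.692. Ccl17, picked for exceeding the sum, had 138 against 13.8 and 52.3. Its linear sum was close to its scaled signal with IRF8 alone (52.8). The unscaled log2 step from IRF8 to both factors was 0.094, so its linear excess rests mostly on the scaling. Ccl3 with 4.89 stayed below both sums (8.21 and 7.39). For Il6 the linear sum was -0.534, below any possible signal.

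**Figure D4:**
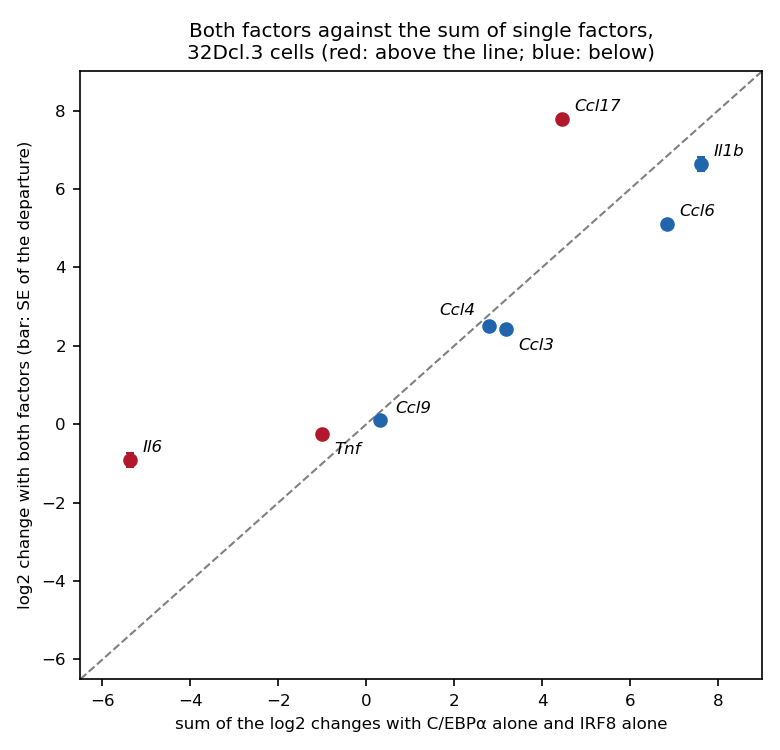
Log2 change with both factors (vertical axis) against the sum of the log2 changes with C/EBPalpha alone and IRF8 alone (horizontal axis) for 8 genes in 32Dcl.3 cells. The dashed line marks equality and bars give the SE of the departure. Il6 (4.47 above) and Ccl17 (3.32 above), both picked for exceeding the sum, lie farthest above the line, and Ccl6 (1.72 below) lies farthest below it.

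The genes whose pattern over the arrays was most like each member were named by correlation, after the mean of each slide was removed. Over 8 arrays of 32Dcl.3 cells Ccl17 was followed by Vipas39 (r = 0.9982), Ifi27l2a and Trex1. Their levels spanned 0.39, 2.64 and 1.77 log2 units where Ccl17 spanned 9.79. Il1b was followed by Lpar6 (r = 0.9997), Tecpr1 and Tmem202, Ccl4 by Npepps, Mogat2 and Dram2, and Il6 by Irak1bp1 (r = 0.9541), Wars2 and Cuedc1. Over all 16 arrays Ccl6 was followed by Ifitm6 (r = 0.9873), Fam89b and Tapbpl, and Ccl9 by Samd9l (r = 0.9924), Tnfrsf11a and Phldb3. Ccl3 was followed by Abtb1, Fam126b and Mpp1, and Tnf by Phax, Stx16 and Ambra1. Such correlations rest on 4 group means per system and on the same arrays and scaling, and are descriptions.

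Receptors of these factors changed in the same cells. Of 14 listed, 8 were tested in progenitors, and 5 rose and 2 fell in Irf8KO MDPs (51.4% of all genes were called) and 5 rose and 3 fell in Irf8KO cMoPs (54.1%). Ccr2, the Ccl2 receptor, rose by 1.39 in Irf8KO MDPs, and Tnfrsf1b, a Tnf receptor, by 1.11 in MDPs and 1.14 in cMoPs. Il1r1, the signalling receptor of Il1b, fell by 1.09 in MDPs and by 1.18 in cMoPs, where some arrays were at background. In cMoPs Il1r2, its decoy receptor, was at least 2.96-fold higher.

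In 32Dcl.3 cells 10 receptors were tested, of which 6 rose and 2 fell with C/EBPalpha (78.8% of all genes were called), 7 rose and 1 fell with IRF8 (48.1%), and 7 rose and 2 fell with both factors (84.8%). Il6ra, the Il6 receptor subunit, rose by 3.46, 4.59 and 5.58 in these 3 comparisons, while Il6 itself was lower in each. Ccr2 was at least 5.38-fold, 14.9-fold and 32.6-fold higher. Ccr4, the receptor of Ccl17, fell by 1.15 with C/EBPalpha and lay 1.16 above the sum of single effects with both factors. The median change of the 10 receptors with IRF8 was 0.49, beside -0.031 for all genes.

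Of 28 other chemokine genes listed, 9 were tested in 32Dcl.3 cells. With both factors 6 rose and 1 fell, where 38% of all genes rose and 46.8% fell. Cxcl2, a neutrophil attractant, was at least 6.11-fold higher, Ppbp, above background on 1 of 2 empty vector arrays, rose by 2.81 and Cxcl9 by 2.34, and Pf4, which platelets store, fell by 2.00. In progenitors 8 were tested, and 3 rose and 1 fell in Irf8KO MDPs (51.4% of all genes called) and 2 rose and 2 fell in Irf8KO cMoPs (54.1%). Cx3cl1 was at least 2.95-fold higher in Irf8KO MDPs. In Irf8KO cMoPs Cxcl10 rose by 1.10, Pf4 was at least 2.17-fold lower and Ccl24, above background on some arrays only, fell by 1.84.

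Of 34 other cytokine genes listed, 19 were tested in 32Dcl.3 cells, and 9 rose and 5 fell with both factors, where 84.8% of all genes were called. Tnfsf13b, the B cell survival factor BAFF, rose by 7.22 with C/EBPalpha, 2.02 with IRF8 and 4.95 with both, with a departure of -4.29 from the sum. It was well above background on 1 of 2 empty vector arrays. Ltb, the neighbour of Tnf on chromosome 17, rose by 2.15 with both factors. Tnfsf9 fell by 1.21 with C/EBPalpha and lay 1.73 above the sum. Il4 fell by 1.34 with both factors and Mif by 1.56. In progenitors 13 were tested, with 4 up and 1 down in Irf8KO MDPs (51.4% of all genes called) and 5 up and 3 down in Irf8KO cMoPs (54.1%). Il18 rose by 1.15 in MDPs. In cMoPs Il12a rose by 2.01 and Ltb by 1.51, and Tnfsf9 was at least 3.81-fold lower.

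Genes that process these factors or control their transcripts were listed as 28, of which 26 were tested in each system. In Irf8KO cells 11 rose and 6 fell at each stage, where 51.4% of all genes were called in MDPs and 54.1% in cMoPs. Socs3, which damps signalling of the Il6 receptor family, rose by 3.33 in MDPs, where some arrays were at background, and was at least 6.76-fold higher in cMoPs, and Relb, an NF-kB subunit, rose by 1.04 and 1.46. Dpp4, a peptidase that trims chemokines, fell by 2.40 in MDPs and was at least 11.3-fold lower in cMoPs. Tnfaip3, an inhibitor of NF-kB, fell by 1.22 and 1.23.

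In 32Dcl.3 cells 10 of the 26 rose and 12 fell with C/EBPalpha, 14 rose and 4 fell with IRF8, and 18 rose and 5 fell with both factors. Of all genes 78.8%, 48.1% and 84.8% were called in these comparisons, so the totals with C/EBPalpha and with both factors were near the background. By direction, 31.6% of all genes rose and 47.2% fell with C/EBPalpha, 22.7% and 25.4% with IRF8, and 38% and 46.8% with both. Nfkbia, the NF-kB inhibitor, rose by 1.11 with C/EBPalpha and 2.59 with both. Zfp36, which promotes decay of Tnf mRNA, was at least 2.72-fold lower with C/EBPalpha and at least 5.55-fold higher with both factors than with C/EBPalpha alone. Relb lay 1.47 above the sum of single effects. The median change of the 26 with both factors was 0.64, beside -0.096 for all genes.

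The Tnf values could be checked further because its probe was spotted 10 times on each array. Among the spots of 1 array the coefficient of variation was 3.12 to 10.5%, with a median of 5.65% over the 16 arrays. The deposited series values, which the authors had normalized further, were compared with the mean of all scanner spots, outlier spots included, times 1 constant per array. On the cMoP arrays 0% of probes were off by more than 0.1 log2 units. On the 32Dcl.3 arrays 51 to 90.4% of the probes with 1 spot were off by more than this. There the deposited values had the same median (19.2) and 75th percentile (305) on every array, and 1 constant per array does not describe them. On the MDP arrays 0% of the 55249 probes with 1 spot were off, but 17.4 to 19.0% of the 432 probes with several spots were off by more. Tnf was among them. Divided by the constant, its deposited values were 109.8 and 106.5 for WT and 153.4 and 152.0 for Irf8KO MDPs, 1.93 to 4.09 times the mean of the spots without outliers and above every Tnf spot on the same array. With the deposited values Tnf was higher in Irf8KO MDPs (0.69, adjusted p = 0.000251), and with the scanner values lower (-0.36). The cause of the mismatch was not tested.

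**Figure D5:**
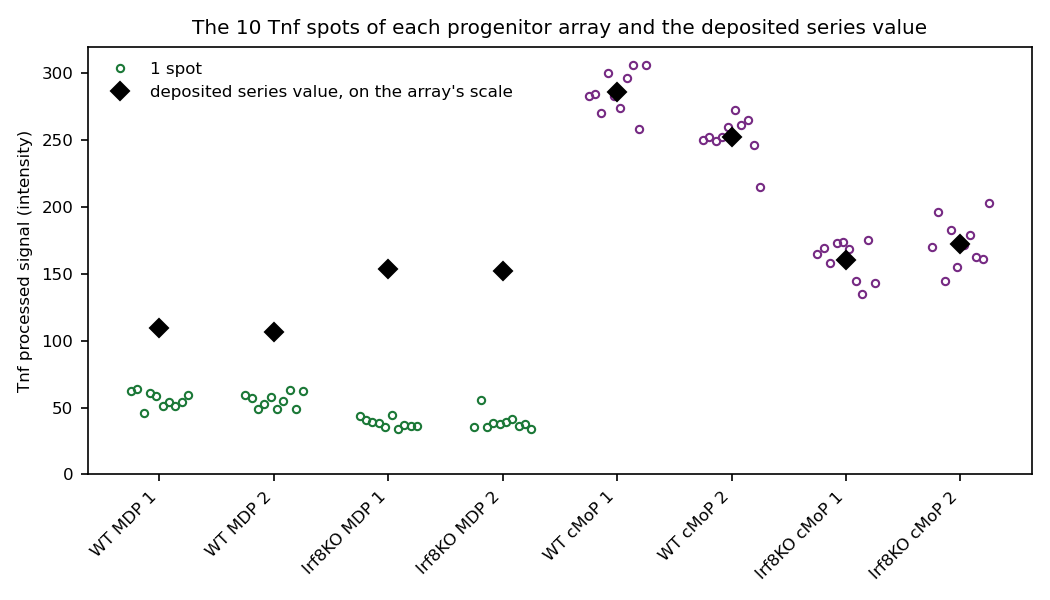
Processed signal (vertical axis) of the 10 Tnf spots on each of the 8 progenitor arrays (open circles, coloured by stage), with the deposited series value divided by the constant of its array (black diamonds). On the MDP arrays the diamonds lie above every spot, and on the cMoP arrays they lie among the spots.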

How the data were processed

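The deposited scanner files hold, per the file headers, output of Agilent Feature Extraction 10.7.3.1: a processed intensity (background subtracted, spatially detrended), raw intensities of spot and background, and other values that flag detection, saturation and outlier spots as 0 or 1. The headers name build mm9. Deposited series values are intensities scaled further by the authors, by a step whose software none of the sources used here gives. RNA was extracted with RNeasy Micro and labelled with the Low Input Quick Amp kit, per the labels.

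Outlier spots were left out, the spots of a probe averaged, and log2 values taken relative to the 75th percentile of the array. Of 55681 probes, 26762 matched 1 gene symbol by accession and 28919 none. Detection required over 0.5 of the spots of a probe to carry the well above background flag. It was kept if detected on both arrays of at least 1 of 4 groups, and the brightest kept probe stood for a gene. The 8 progenitor arrays (11964 genes) and the 8 32Dcl.3 arrays (13339 genes) were each fitted by limma 3.58.1 in R 4.3.3, with 4 group means and a trended eBayes step. With 4 residual degrees of freedom, the SE of a gene is shared by all groups of a system. Two-sided p-values, adjusted after Benjamini-Hochberg over all genes at a threshold of 0.05, measure only the spread between these arrays. The fit was tested on simulated data. Where both arrays of 1 group were at background, the fold is a bound ("at least N-fold").

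Named list genes were called with an absolute log2 change of at least 1, at most 3 per list, direction and comparison. The neighbours of a member on the chromosome were looked up afterwards. Members, lists and tests were chosen with earlier results of these data known. Lists were described by counts and medians and not tested. Same-numbered arrays were not paired, as their deviations correlated between -0.065 and 0.071. Promoters came from RefSeq GRCm38.p6, where Ccl2 and Ccl4 were not listed. The planned protein comparison was not run. Figures were drawn with matplotlib 3.10.9.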

Additional observations from a re-analysis of the deposited data

Results flagged for a closer look

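For 6 genes the effect of IRF8 differed between cells without and with C/EBPalpha, by the interaction term of the limma fit in 32Dcl.3 cells. The interaction was -1.72 for Ccl6, -0.75 for Ccl3, -0.28 for Ccl4, -0.20 for Ccl9, -0.99 for Il1b and 0.76 for Tnf, and 55.7% of all genes passed the same test. IRF8 changed Ccl3 by 0.17 without C/EBPalpha and by -0.57 with it, and Tnf by -0.057 and 0.70. For Il1b the empty vector arrays were not well above background, so its interaction is a description. Ccl17 and Il6 had been picked for this pattern and are left out of this list.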

How the results depend on the processing

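Alternatives to the tests gave 911 values for tested members. The untested linear and unscaled sums and all values of Ccl17 and Il6 were left out. Of the 911, 874 kept direction and side of the threshold, 22 lost the call, 7 gained one and 8 changed sign. Over the alternatives the departure from the sum ran from 2.03 to 3.67 for Ccl17 and from 2.49 to 4.60 for Il6. Ccl6 and Ccl9 kept their calls in both knockouts under every alternative run (-1.51 to -1.18 for Ccl6 and 1.13 to 1.26 for Ccl9 in MDPs). In MDPs 2 of 4 members were called with normexp background or no filter on dim probes, and 2 to 4 when 1 array was left out. For the stage difference, 1 member was called in place of 0 with array median, quantile or normexp values, with no filter, and with deposited series values. Changes of sign were: with deposited series values, Tnf in MDPs (0.69); with the array median, Ccl9 for both factors against empty vectors (-0.54) and against IRF8 (-0.27) and Ccl4 for both against C/EBPalpha (-0.32); with the percentile over detected probes, Tnf for both against empty vectors (0.046) and against IRF8 (0.11); with normexp, Ccl9 for both against empty vectors (-0.19) and the Il1b interaction (0.41); and on the linear scale, the departures of Ccl6 (117 units of the 75th percentile) and Il1b (1.83). The cause was not tested. The Tnf difference between both factors and IRF8 (-0.18) lost its call without IRF8 array 2 (-0.16), with quantile normalization (-0.12) and with deposited series values (-0.13). The unscaled departures were added after the data were seen. With a replicate block the count in MDPs stayed at 4, and the block changed no call. The main limits are 2 arrays per group and signals near background for Ccl3 in progenitors and Il1b with empty vectors. The planned protein identity between members was not run.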

Other observations

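Wfdc17, a small secreted protein gene next to the chemokine cluster on chromosome 11 and named after its values were seen, changed in the same direction as Ccl6 in the 5 comparisons that follow. It changed by -4.61 ± 0.41 (SE) in Irf8KO MDPs (adjusted p = 7.96e-06), by -2.68 ± 0.41 in Irf8KO cMoPs (adjusted p = 0.000286), by 3.71 ± 0.20 with C/EBPalpha (adjusted p = 4.14e-09), by 4.90 ± 0.20 with IRF8 (adjusted p = 2.01e-09) and by 7.72 ± 0.20 with both factors (adjusted p = 2.47e-12). Ccl5, also looked up afterwards, behaved more like Ccl9 in the knockouts, with rises of 0.89 ± 0.17 in MDPs and 0.91 ± 0.17 in cMoPs.

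The deposited series values of other probes with 10 spots also stood apart on the MDP arrays. Divided by the constant of the array, those of Il1b were 2.49 to 4.43 times and those of Ccl2 1.16 to 2.69 times the scanner mean. Both genes were at background on these arrays in the scanner files.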
